A study of Ambystoma mexicanum with 7 samples.

Results

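Chromosome 13 of the axolotl carried 8473 of the 211537 ATAC-seq peaks that were called in live sorted cells of blastema and limb samples. Its short arm, 13p, held 2579 of the 8473 peaks and its long arm, 13q, held 5894. The members were chosen by position alone, as every peak of the blastema, systemically activated and intact lists that lies on 13p or 13q. They were 6464 of 168368 blastema peaks, 817 of 17326 systemically activated peaks and 1192 of 25843 intact peaks. Because the peak lists themselves chose the members, the number of peaks per list is given below as a description and without a test.

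The animal is the axolotl (Ambystoma mexicanum), a salamander able to regrow a lost limb. All 7 samples were wild type and consisted of live cells with a 4C DNA content, isolated by cell sorting. The blastema group had 2 samples of blastema and wound epidermis, and the sources used here do not give its day after amputation. The systemically activated group had 2 samples of limb tissue, where the name stands for limbs that respond to an amputation elsewhere in the body, and the intact group had 3 samples of homeostatic limb tissue. For both of these limb groups the series gives 14 days after amputation. Each group has 1 peak list made from all of its samples, so no sample had a value of its own, no spread between replicates could be measured, and no test between conditions was possible. The labels do not say whether each sample is a different animal. Intervals below are 95% intervals over peaks, except those of ratios and differences of medians. The latter combine the extremes of both arms' 95% intervals and are wider than a 95% interval. All cover counting error only, and peaks near each other on a chromosome are not independent.

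ATAC-seq marks DNA that the Tn5 transposase can reach. Such open stretches are typically promoters and enhancers, where bound factors keep nucleosomes away, and a broad open stretch often covers several neighbouring bound sites. The axolotl genome is very large, with long introns and long repeat-rich stretches between genes, so open sites can lie far apart. A chromosome has a p arm and a q arm on either side of its centromere, by convention the short and the long one, though in these lists 10p was longer than 10q. Open chromatin is usually unevenly spread along each arm. Positions are counted from the start of each arm's sequence. Which end lies at the centromere, which genes lie near a peak and what its sequence is were not analysed here, since no genome of the files' build was used.

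The lists differed in depth, which sets how weak a site can be and still be called. The lowest fold over background in a whole list was 1.76 in blastema, 2.62 in systemically activated limb and 2.43 in intact limb. The pileup, or number of fragments covering a summit, the base with the highest signal in a peak, was worked out from the deposited values for at least 99.4% of chromosome 13 peaks in each list and arm. On 13p the median was 23 fragments in blastema, 14 in systemically activated limb and 16 in intact limb, and on 13q it was also 23, 14 and 16. The median background at those summits was 5.38 fragments on both arms in blastema. It was 1.50 on 13p and 1.62 on 13q in systemically activated limb, and 2.11 on 13p and 2.07 on 13q in intact limb. The arms had equal median pileups within a list, while the lists differed from each other, so lists are compared below by sharing and position rather than by signal.

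The arms of chromosome 13 were among the most densely accessible of the 28 chromosome arms in all 3 lists. Taking the end of the last peak of the all-sample list as the length of an arm, 13p was 241 Mb and 13q 483 Mb long. Blastema peaks stood at 8.11 per Mb on 13p and 9.32 per Mb on 13q. The other 26 arms ran from 4.53 (5p) to 8.17 (3q) with a median of 6.11, which put 13q at rank 1 and 13p at rank 3. Systemically activated peaks stood at 1.09 per Mb on 13p and 1.15 per Mb on 13q, against 0.394 (5p) to 1.03 (14p) on the other arms, whose median was 0.629. Intact peaks stood at 1.48 per Mb on 13p and 1.73 per Mb on 13q, against 0.597 (5p) to 1.44 (14p), with a median of 0.908. In both limb lists 13q and 13p were first and second. The chromosome made up 2.71% of the length of all arms but held 3.84% of blastema, 4.72% of systemically activated and 4.61% of intact peaks.

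**Figure D1:**
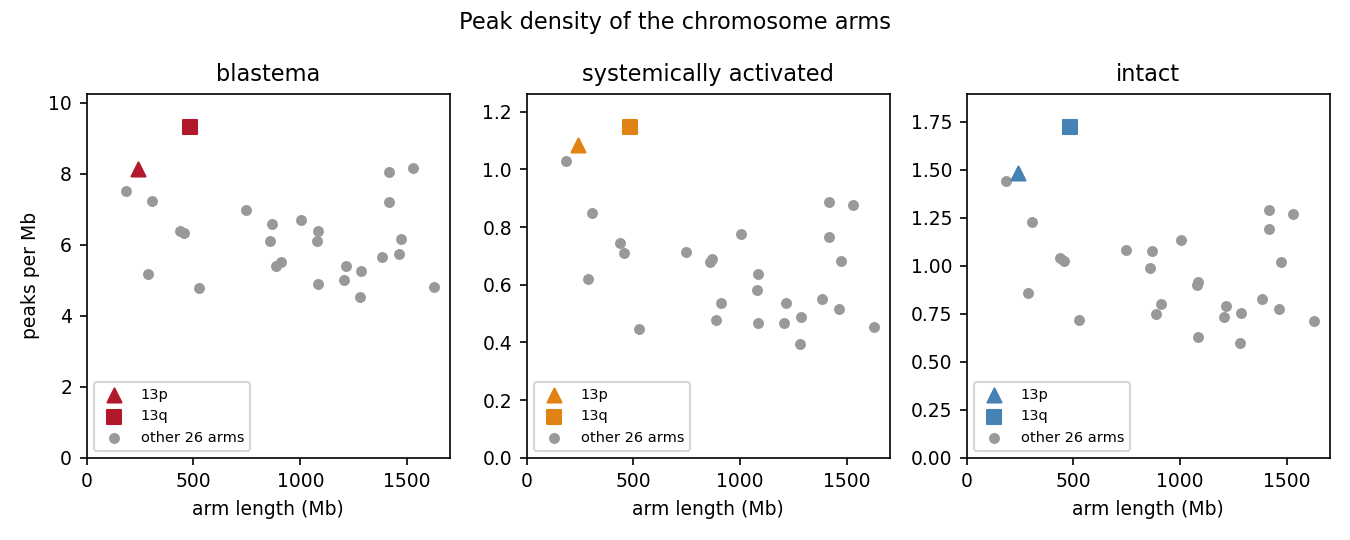
Peaks per Mb (vertical axis) against arm length in Mb (horizontal axis) for the 28 arms, 1 panel for each group list, with 13p as a triangle, 13q as a square and the other 26 arms as grey points. 13q is the highest point in every panel, at 9.32 blastema, 1.15 systemically activated and 1.73 intact peaks per Mb.

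Between the arms, 13p held slightly fewer peaks than its length would give. It made up 33.3% of the chromosome's length and held 30.3% of its blastema peaks (1959 of 6464, interval 29.2 to 31.4). Its share was 32.1% of systemically activated peaks (262 of 817, 28.9 to 35.4) and 30.0% of intact peaks (358 of 1192, 27.4 to 32.7). The density on 13p was 0.871 times that of 13q in blastema, 0.945 times in systemically activated limb and 0.859 times in intact limb. The interval for systemically activated limb includes the share of length, so a difference was not detectable there with 817 peaks. The peaks covered 937 kb of 13p and 2105 kb of 13q in blastema, 101 kb and 213 kb in systemically activated limb, and 151 kb and 347 kb in intact limb.

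Chromosome 14 is the one most like chromosome 13 in size. Arm 14p, the shortest of all, had densities of 7.51, 1.03 and 1.44 peaks per Mb in blastema, systemically activated and intact limb, a little below those of 13p. Arm 14q, close to 13q in length, had 6.38, 0.745 and 1.04, well below those of 13q.

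Neighbouring peaks lay at much the same distances on both arms. The median distance between neighbouring blastema summits was 38.5 kb on 13p (35.0 to 43.2) and 36.0 kb on 13q (33.2 to 39.3). In systemically activated limb it was 408 kb on 13p (332 to 500.02) and 374 kb on 13q (317 to 458), and in intact limb 238 kb on 13p (188 to 320.4) and 269 kb on 13q (224 to 306). The ratio of 13p over 13q was 1.07 in blastema (0.891 to 1.30), 1.09 in systemically activated limb (0.724 to 1.58) and 0.885 in intact limb (0.614 to 1.43), so each interval includes equal spacing. Among the 954 blastema peaks whose fold reached 5, spacing on 13p was 1.69 times that on 13q (1.07 to 2.52). With strength taken as a −log10 q of at least 5 the ratio was 1.102 (0.838 to 1.39), and when each list was held to its 17326 peaks of highest −log10 q it was 1.33 (0.895 to 1.99), and both intervals include equal spacing. Over the other 26 arms the median spacing ran from 46.2 to 74.1 kb in blastema, which puts both arms of chromosome 13 below all of them.

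Peaks came in close groups separated by long stretches with no peak of the same list. Mean spacing was 123 kb on 13p and 107 kb on 13q in blastema, so the median was 0.313 and 0.336 times the mean. On 13p 23.4% of blastema spacings (458 of 1958) were under 10 kb, and on 13q 26.6% (1197 of 4504). These shares were the second highest and the highest of the 28 arms, against 17.3 to 21.9% on the others. A share under a fixed distance also depends on density, which was high on both arms. The ratio of median to mean ran from 0.298 to 0.400 on the other arms, with 13p at rank 4 and 13q at rank 8 from the lowest. In the limb lists the shares under 10 kb on both arms lay within the range of the others. That range was 3.42 to 10.1% in systemically activated and 4.86 to 11.3% in intact limb. Summits under 1 kb apart made up 6.89% of blastema spacings on 13p and 8.73% on 13q. At the other extreme, spacings over 1 Mb were 1.43% of blastema spacings on 13p (28) and 0.688% on 13q (31), yet they spanned 18.1% and 13.9% of the arm. In the sparser limb lists spacings over 1 Mb spanned more of the arm: 75.7% of 13p and 73.6% of 13q in systemically activated limb, and 70.6% of 13p and 58.1% of 13q in intact limb. Of the intact spacings, 20.4% were over 1 Mb on 13p (73 of 357) and 14.3% on 13q (119 of 833).

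**Figure D2:**
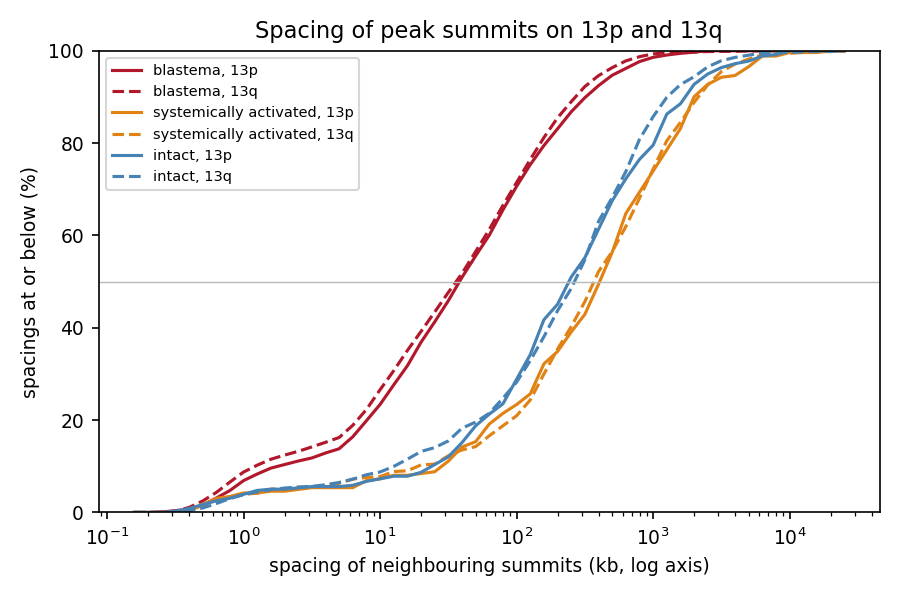
Share of spacings between neighbouring summits (vertical axis, %) at or below a given length (horizontal axis, kb, log scale), with a colour for each list, solid lines for 13p and dashed lines for 13q. The curves of the arms run close together in each list, crossing 50% at 38.5 and 36.0 kb in blastema, 408 and 374 kb in systemically activated limb, and 238 and 269 kb in intact limb.

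The tightest group of blastema peaks on 13p had 16 summits within 100 kb, spread over 217262858 to 217362490. It covered 8146 bases of open DNA, with folds of 2.58 to 4.46. Both limb lists overlapped 1 of its peaks and neither limb list overlapped 15. On 13q the tightest group, the first of 2 windows with that count, had 18 summits, from 435898667 to 435996309, with 10085 bases covered and folds of 2.38 to 7.30. Here 2 peaks were overlapped by both limb lists and 16 by neither. The tightest intact group, 6 summits from 435593061 to 435669702 on 13q, lay less than 1 Mb before it. The tightest systemically activated group, 5 summits from 55732822 to 55757383 on 13q, lay far from these. All 5 of its peaks were overlapped by both other lists, as were 76.9% of all systemically activated peaks on 13q. Over all blastema peaks, neither limb list overlapped 80.7% on 13p and 80.7% on 13q.

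The longest stretches with no peak of a list fell in different places on the arms. None was empty of all called sites, since each held peaks of the all-sample list. On 13q the longest in every list lay between 96.6 and 150 Mb. The longest stretch with no systemically activated peak, 24.1 Mb from 126168010 to 150233484, held 26 blastema peaks and 1 intact peak. The longest with no intact peak, 22.6 Mb from 127663301 to 150233740, was nearly the same stretch and held 14 blastema peaks and 1 systemically activated peak. The next longest was again nearly the same in both limb lists, 12.9 Mb from 96640585 to 109558233 in systemically activated limb, with 9 blastema peaks inside, and 12.9 Mb from 96641023 to 109558286 in intact limb, with 10. Even in the deeper blastema list the longest stretches of 13q without its peaks lay here, 5.57 Mb from 130682484 to 136249088 and 5.02 Mb from 111664358 to 116684342. The all-sample list had 18 and 30 peaks in them. On 13p the longest stretch with no systemically activated peak, 17.0 Mb from 83877 to 17053612, lay near the start of the arm and held 46 blastema and 3 intact peaks. The longest with no intact peak on 13p was 8.44 Mb, from 183367035 to 191803932, and 3 systemically activated and 26 blastema peaks lay in it. The 2 longest stretches on 13p with no blastema peak followed each other, parted by a single peak. They were 2.44 Mb from 163878653 to 166319052 and 2.297 Mb from 166319270 to 168616176, with 15 and 13 all-sample peaks inside.

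Blastema peaks on the arms of chromosome 13 had greater median widths than on any other arm. The median width was 381 bases on 13p (367 to 398) and 364 bases on 13q (357 to 372), against 327 bases (326 to 329) over the other 26 arms, whose medians ran from 314 (5p) to 353 (11p). In systemically activated limb the medians were 340 bases on 13p (339.5, interval 320 to 377), 327 on 13q (306 to 345) and 329 on the other arms (324 to 333). In intact limb they were 356 bases on 13p (355.5, interval 318 to 387), 358 on 13q (336 to 376) and 350 on the other arms (347 to 354). The limb medians of chromosome 13 lay within the range of the other arms, 306 to 353 (352.5) bases in systemically activated limb and 318 to 406 in intact limb. In the all-sample list, as in blastema, the arms had the greatest medians, 340 (13p) and 344 (13q) bases, against 301 to 333 on the others. The difference of 13p minus 13q was 17 bases in blastema (interval -5 to 41), 12.5 in systemically activated limb (-25 to 71) and -2.5 in intact limb (-58 to 51), so a difference in width between the arms was not detectable in any list.

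Wide sites were more frequent. Blastema peaks of at least 500 bases were 34.6% of those on 13p (677 of 1959, 32.5 to 36.7) and 33.0% on 13q (1485 of 4505, 31.6 to 34.4), against 26.5% on the other arms (26.2 to 26.7). Peaks of the smallest width in the lists, 200 bases, were 7.15% on 13p and 7.44% on 13q, against 9.23% on the others. The blastema peaks of chromosome 13 were also stronger within their list. Their median −log10 q, the strength of the call adjusted within the list, was 4.81 on 13p and 4.85 on 13q, against 4.02 to 4.58 on the other arms.

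The widest peaks were mostly shared. On 13p the widest blastema peak spanned 2261 bases, from 217118708 to 217120968, and 2 systemically activated and 2 intact peaks lay inside it. The second, from 234960207 to 234962208, spanned 2002 bases and was overlapped by a systemically activated peak of 243 bases but by no intact peak, the nearest intact summit being 424649 bases away. On 13q the widest blastema peak, 2209 bases from 436458779 to 436460987, was overlapped by an intact peak of 308 bases and by no systemically activated peak. The summits of that pair lay 1448 bases apart. The second, 2166 bases from 444911512 to 444913677, was overlapped by both limb lists. The widest systemically activated peaks were 1199 and 1058 bases long on 13p and 1393 and 1298 on 13q, and the widest intact peaks were 1526 and 1524 bases on 13p and 1389 and 1355 on 13q. All 8 of these limb peaks were overlapped by both other lists, as were 75.3% of all systemically activated and 49.7% of all intact peaks. The peaks of 1393 and 1355 bases on 13q are the same site in the 2 limb lists. A wide interval also has more room for an overlap.

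The tallest signal of the chromosome lay in a pair of wide sites near the start of 13q. The first, from 20670056 to 20671529 in the blastema list, had 295 fragments at its summit in blastema, 162 in systemically activated limb and 196 in intact limb. These were the highest pileups of 13q in all 3 lists. Its width was 1474, 1393 and 1355 bases, and its summits in both limb lists fell on the same base, 7 bases from the blastema summit. The second, from 20789521 to 20790873 in the blastema list, had 265, 133 and 160 fragments and a width of 1353, 1298 and 1272 bases. On 13p the highest pileups were 104 fragments in blastema and 42 in each limb list.

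Sharing between lists was counted as an overlap of at least 1 base. Few blastema peaks had a counterpart in the shorter limb lists, while nearly all limb peaks had one in blastema, on both arms. A systemically activated peak overlapped 242 of 1959 blastema peaks on 13p, or 12.4% (10.9 to 13.9), and 515 of 4505 on 13q, or 11.4% (10.5 to 12.4), where the share over the whole list was 9.23%. An intact peak overlapped 322 blastema peaks on 13p, or 16.4% (14.8 to 18.2), and 774 on 13q, or 17.2% (16.1 to 18.3), against 13.2% of the whole list. Of the systemically activated peaks, 253 of 262 on 13p (96.6%, 93.6 to 98.4) and 534 of 555 on 13q (96.2%, 94.3 to 97.6) were overlapped by a blastema peak, against 93.9% of the whole list. Of the intact peaks, 334 of 358 on 13p (93.3%, 90.2 to 95.7) and 795 of 834 on 13q (95.3%, 93.7 to 96.7) were, against 89.9%.

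The limb lists overlapped each other about as often as on other arms. An intact peak overlapped 188 of 262 systemically activated peaks on 13p, or 71.8% (65.9 to 77.1), and 430 of 555 on 13q, or 77.5% (73.8 to 80.9), where the whole list had 75.9%. The share on 13p was the lowest of the 28 arms, but its difference from the other 26 arms together, -4.24 percentage points, had an interval of -10.0 to 0.912. A systemically activated peak overlapped 186 of 358 intact peaks on 13p, or 52.0% (46.6 to 57.2), and 423 of 834 on 13q, or 50.7% (47.3 to 54.2), against 50.2% of the whole list.

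No difference in sharing between the arms exceeded counting error when all peaks were used. In 13p minus 13q, the share of blastema peaks differed by 0.921 percentage points for overlap by systemically activated peaks (interval -0.764 to 2.70) and by -0.744 points for overlap by intact peaks (-2.68 to 1.27). The widest gap was for systemically activated peaks overlapped by intact peaks, -5.72 points (-12.3 to 0.559). The intervals thus allow differences of several points between the arms in the limb lists. Among peaks with a −log10 q of at least 5, the share of systemically activated peaks overlapped by blastema peaks was lower on 13p than on 13q, a difference of -3.32 points (-8.12 to -0.0278). Against the other 26 arms, blastema peaks were overlapped more often on chromosome 13: by systemically activated peaks 3.23 points more on 13p (1.84 to 4.77) and 2.31 more on 13q (1.40 to 3.28), and by intact peaks 3.39 more on 13p (1.81 to 5.10) and 4.13 more on 13q (3.05 to 5.28). Arm 14p had similar shares, with 12.1% of its blastema peaks overlapped by systemically activated peaks and 17.0% by intact peaks, so the higher sharing was not particular to chromosome 13.

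**Figure D3:**
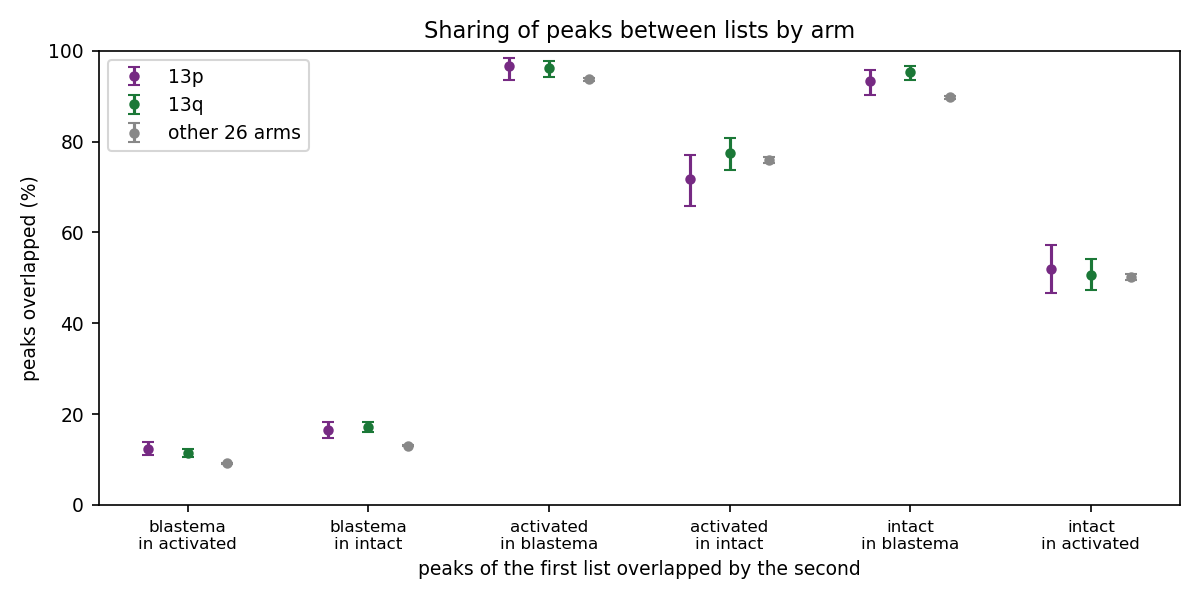
Share of the peaks of 1 list overlapped by another (vertical axis, %) for the 6 ordered pairs of lists, with 13p, 13q and the other 26 arms from left to right and 95% exact binomial intervals as bars (activated stands for systemically activated). The intervals of 13p and 13q overlap in every pair, and those of both arms lie above the other arms for blastema peaks, for example at 16.4%, 17.2% and 13.05% overlapped by intact peaks.

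Among the strongest blastema peaks there was no such excess, and on 13q the shares were below those of the other arms. Peaks with a −log10 q of at least 10 were 18.7% of the blastema peaks on 13p and 19.9% on 13q, against 13.5% on the other arms. Within that band, intact peaks overlapped 63.9% on 13p (58.8 to 68.9) and 62.8% on 13q (59.6 to 66.0), against 68.5% on the other arms (67.9 to 69.1). Systemically activated peaks overlapped 50.5% on 13p (45.3 to 55.8) and 47.7% on 13q (44.3 to 51.0), against 53.3% on the other arms (52.7 to 54.0). In the band from 5 to 10, intact peaks overlapped 10.9% on 13p, 11.3% on 13q and 11.9% on the other arms. In the band from 3 to 5 the shares were 3.42%, 3.23% and 2.03%, and below 3 they were 0.860%, 2.04% and 0.830%. Systemically activated peaks overlapped 6.30%, 5.42% and 6.09% in the band from 5 to 10. They overlapped 2.82%, 0.876% and 1.05% from 3 to 5, and 0.573%, 0.600% and 0.359% below 3. The part of strength in the sharing was not tested. These bands were chosen after the values were seen. Sharing was far more frequent among strong sites on either arm. Intact peaks overlapped 42.6% of the 653 strongest blastema peaks on 13p and 1.53% of the 653 weakest, and on 13q 44.0% of the 1502 strongest and 2.40% of the 1501 weakest.

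Split by how many lists held them, blastema peaks fell into nearly the same proportions on the arms. Both limb lists overlapped 186 blastema peaks on 13p, or 9.49% (8.23 to 10.9), and 421 on 13q, or 9.35% (8.51 to 10.2), against 7.56% of the whole list. Neither limb list overlapped 1581 on 13p, or 80.7% (78.9 to 82.4), and 3637 on 13q, also 80.7% (79.6 to 81.9), against 85.1%. The systemically activated list alone overlapped 56 on 13p (2.86%) and 94 on 13q (2.09%), against 1.66% of the whole list. The intact list alone overlapped 136 (6.94%) and 353 (7.84%), against 5.63%. Of systemically activated peaks, 188 on 13p (71.8%) and 427 on 13q (76.9%) were overlapped by both other lists, against 75.3% of the whole list. Of intact peaks, 186 on 13p (52.0%) and 420 on 13q (50.4%) were, against 49.7%. Limb peaks outside the blastema list were rare. Of systemically activated peaks, 9 on 13p (3.44%) and 18 on 13q (3.24%) were in no other list, against 5.44% of the whole list. Of intact peaks, 24 on 13p (6.70%) and 36 on 13q (4.32%) were in no other list, against 9.63%. After overlapping peaks were joined, sites held by both limb lists but not by blastema numbered 0 of 1991 on 13p (interval 0 to 0.185%). On 13q they numbered 3 of 4554, or 0.0659% (0.0136 to 0.192). The other 26 arms had 107 of 160293, or 0.0668%, which lies within both intervals.

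Blastema peaks that were shared were far wider and taller than those that were not. On 13p the median width was 921 bases when both limb lists overlapped the peak and 330 bases when neither did, and the median pileup was 61 and 21 fragments. On 13q the widths were 887 and 318 bases and the pileups 58 and 21 fragments. Peaks overlapped by 1 limb list lay between, at 592 bases (systemically activated) and 581 bases (intact) on 13p, and at 658 (657.5) and 633 bases on 13q. Within these classes the arms of chromosome 13 were not uniformly wider than the other 26 arms, which had 955 bases for peaks shared with both limb lists and 298 bases for peaks in neither. A wide interval has more room for an overlap, and the limb lists were shallower than the blastema list. Both favour wide and tall peaks among the shared ones, so the difference is not a trait of shared sites by itself. Their part in it was not tested.

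**Figure D4:**
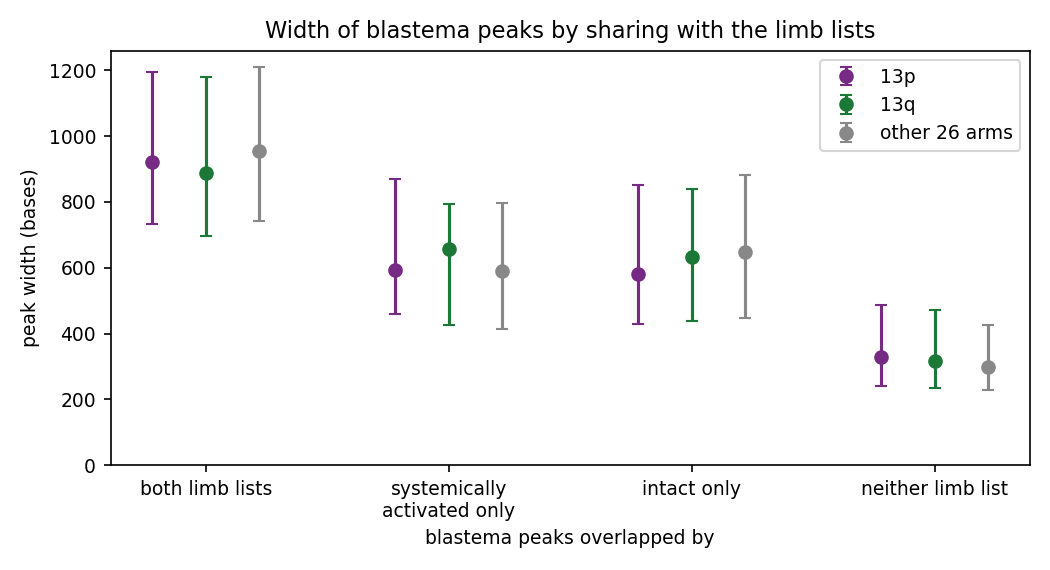
Width in bases (vertical axis) of blastema peaks overlapped by both limb lists, by 1 of them or by neither (horizontal axis), with points for the median and bars for the quartiles, for 13p, 13q and the other 26 arms from left to right. Medians run from 330, 318 and 298 bases in neither limb list up to 921, 887 and 955 bases in both.

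Shared peaks were paired by overlap, which itself limits how far apart their summits can lie. The median distance from a blastema summit to that of its best-overlapping intact peak was 72.5 bases on 13p (322 pairs) and 74.5 bases on 13q (774 pairs). Of these pairs 39.8% on 13p and 40.2% on 13q lay within 50 bases, and the longest distances were 1011 and 1448 bases. To the systemically activated summit the median distance was 82.5 bases on 13p (242 pairs) and 71.0 bases on 13q (515 pairs). Between the limb lists it was 67.5 bases on 13p (188 pairs) and 72.5 on 13q (430 pairs). Blastema intervals were typically 1.91 times as wide as the intact interval they shared on 13p and 1.90 times on 13q. Unshared blastema peaks lay at a median of 116 kb on 13p and 109 kb on 13q from the nearest limb summit, and 10.2% and 11.2% of them lay within 10 kb of one. The distance that position alone would give was not worked out, so these values do not show whether such peaks were near or far.

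The shared sites of highest fold ranged in width from 354 to 845 bases. The first on 13p was a blastema peak of 395 bases from 131427590 to 131427984, with a fold of 17.5 and 68 fragments. Its partners had folds of 14.0 in systemically activated limb and 13.5 in intact limb, each within its own list, with 22 fragments each. The next on 13p were from 57198087 to 57198766 (fold 15.7, 680 bases) and from 212420831 to 212421675 (fold 11.2, 845 bases). On 13q the first was a peak of 447 bases from 29241851 to 29242297, with a fold of 20.1 and 109 fragments, and its partners had folds of 12.96 (20 fragments) in systemically activated limb and 19.5 (38 fragments) in intact limb. The next on 13q were from 475508030 to 475508383 (fold 15.7, 354 bases) and from 225846001 to 225846463 (fold 14.9, 463 bases). At these 6 sites the limb summits lay between 7 and 156 bases from the blastema summit.

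Blastema sites of highest fold with no limb overlap had lower folds than the shared sites named above on the same arm. On 13p they ran from 119876281 to 119876910 (fold 9.53, 44 fragments), from 200285875 to 200286170 and from 225573161 to 225573599 (fold 9.16 and 31 fragments each). On 13q they ran from 436920001 to 436920405 (fold 12.0, 41 fragments), from 436255339 to 436255651 (fold 11.2, 38 fragments) and from 416801763 to 416802204 (fold 10.3, 35 fragments). The 3 on 13q were 23380 to 31176 bases from the nearest intact summit and at least 323063 bases from the nearest systemically activated summit. All 3 lay in the last 25% of the arm.

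The limb sites of highest fold with no blastema overlap had at most 15 fragments at their summits. On 13p the systemically activated peaks of highest fold among them ran from 83619923 to 83620136 (fold 6.78, 15 fragments) and from 218685919 to 218686179 (fold 6.32, 11 fragments). On 13q they ran from 374835699 to 374835958 (fold 7.30, 12 fragments) and from 406485412 to 406485798 (fold 7.21, 14 fragments), and an intact peak with a summit 20 bases away overlapped the last. The intact peaks of highest fold ran from 134693145 to 134693636 (fold 8.15, 14 fragments) and from 212588500 to 212588699 (fold 5.91, 12 fragments) on 13p. On 13q they ran from 374148133 to 374148364 (fold 7.83, 12 fragments) and from 271261495 to 271261770 (fold 7.53, 13 fragments), and these 4 were in no other list.

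Along both arms, peaks piled up toward the far end of the sequence, in all 3 lists. On 13p the first 50% of the arm held 38.0% of blastema peaks (744 of 1959, 35.8 to 40.2), 35.1% of systemically activated peaks (29.3 to 41.2) and 34.1% of intact peaks (29.2 to 39.2). On 13q it held 30.0% of blastema peaks (1351 of 4505, 28.7 to 31.4), 34.8% of systemically activated peaks (30.8 to 38.9) and 32.3% of intact peaks (29.1 to 35.5). Over the other 26 arms the blastema share in the first 50% ran from 26.2% (7q) to 68.7% (12p) with a median of 51.3%, so such a lean was not peculiar to chromosome 13. The median summit position was 64.7% of the arm in blastema, 66.1% in systemically activated limb and 68.6% in intact limb on 13p, and 70.1%, 66.6% and 68.2% on 13q.

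In stretches of 25% of the arm, the blastema density profile differed in shape between the arms. On 13p the blastema density was 4.66, 7.67, 7.46 and 12.7 peaks per Mb in the 4 successive stretches of 25% of the arm, with a level middle. On 13q it was 5.16, 6.02, 9.44 and 16.7 peaks per Mb, higher in each stretch than in the one before. Systemically activated density on 13q also rose in each stretch, but intact density was about level in the first and second, at 1.12 and 1.11 peaks per Mb. In stretches of 10% of 13q the rise was not steady. The blastema share was 7.57% from 10 to 20% of the arm and 2.57% from 20 to 30%. The last 25% was 2.72 times as dense as the first 25% on 13p and 3.23 times on 13q in blastema. In systemically activated limb it was 3.41 and 2.48 times as dense, and in intact limb 4.29 and 2.64 times. Median blastema spacing in the last 25% was 24.9 kb on 13p and 21.2 kb on 13q, against 79.0 and 70.8 kb in the first 25%.

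**Figure D5:**
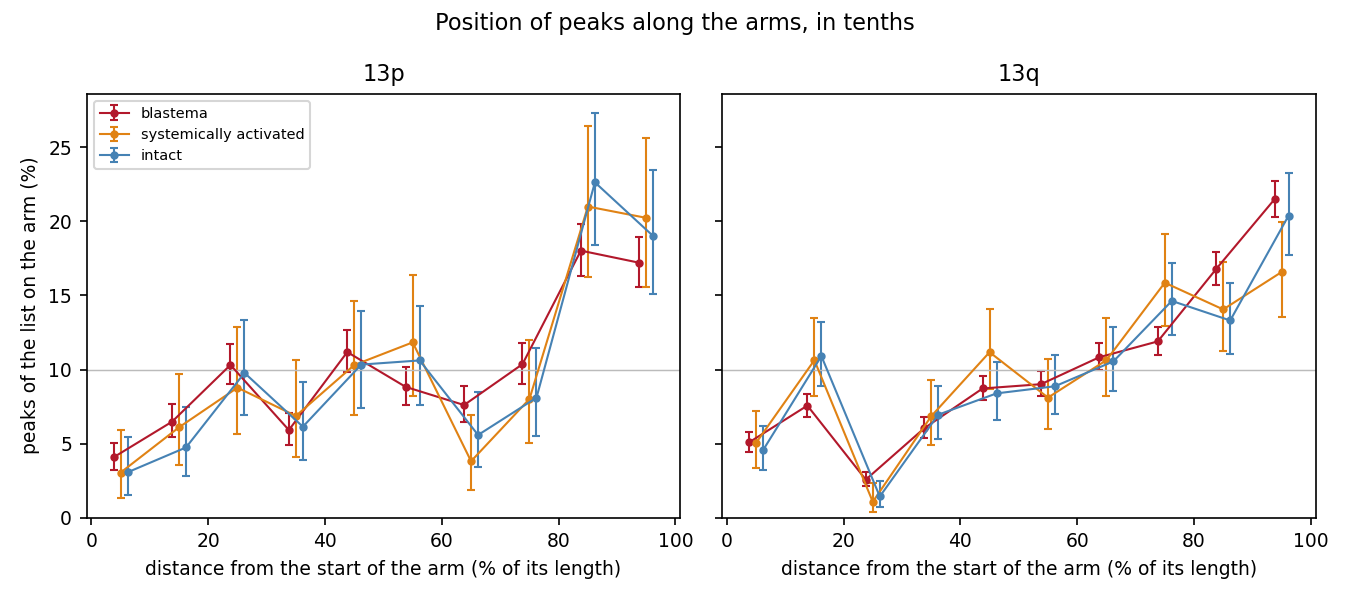
Share of the peaks of a list on an arm (vertical axis, %) in each 10% of the arm (horizontal axis, distance from the start of the arm in % of its length), with 95% exact binomial intervals as bars and a grey line at 10%. On 13q the stretch from 20 to 30% holds 2.57% of blastema, 1.08% of systemically activated and 1.44% of intact peaks, and the last 10% holds 21.5%, 16.6% and 20.4%.

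In windows of 20 Mb, the extremes largely coincided between lists. The fullest window of 13p, from 200 to 220 Mb, was the same in all 3 lists, with 294 blastema, 59 systemically activated and 72 intact peaks. It held 15.0% of the arm's blastema, 22.5% of its systemically activated and 20.1% of its intact peaks. The emptiest full window of 13p, the first 20 Mb, had 57, 4 and 8 peaks. On 13q the fullest window was from 460 to 480 Mb in blastema (424 peaks) and intact limb (79 peaks) but from 360 to 380 Mb in systemically activated limb (44 peaks). The systemically activated counts were close, with 43 peaks from 440 to 460 Mb and 40 from 460 to 480 Mb. The emptiest of these fixed windows on 13q, from 100 to 120 Mb, was the same in all lists, with 42 blastema, 1 systemically activated and 2 intact peaks. Which window is emptiest depends on where the windows start. The stretch of 13q from 130 to 150 Mb was emptier but was split between neighbouring windows. It held 6 blastema peaks from 130 to 140 Mb and 3 from 140 to 150 Mb, with 0 systemically activated and 0 intact peaks in each part.

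Width and sharing also varied along the arms. In the last 25% of 13p the median blastema width was 419 bases (392 to 449), against 319 (303 to 357) in the first 25%, and the median −log10 q was 5.22 against 4.12. The intact list went the other way, with 355 bases (304 to 386) in the last 25% and 489 (345 to 562) in the first. Its median −log10 q was 5.61 and 7.06. In systemically activated limb the width was 371.5 bases (323 to 416) in the last 25% and 283.5 (238 to 380) in the first, with a −log10 q of 5.33 and 5.49. Intact peaks overlapped 19.3% of blastema peaks in the last 25% of 13p and 12.1% in the first 25%, a difference of 7.25 percentage points (2.17 to 11.7). On 13q the direction was the opposite, with 16.4% in the last 25% and 20.7% in the first, a difference of -4.29 points (-7.98 to -0.855). Between the last and first 50% of the arm the difference was 2.45 points on 13p (-0.961 to 5.71) and -1.79 on 13q (-4.28 to 0.603), and both intervals include 0. The overlap by systemically activated peaks was 14.1% and 10.3% in the last and first 25% of 13p (difference 3.797, interval -0.905 to 7.83), and 10.4% and 13.5% on 13q (-3.08, interval -6.25 to -0.253). Blastema width on 13q was 359 bases (343 to 374) in the last 25% and 369 (368.5, interval 351 to 396) in the first. The median background at blastema summits was 5.34 fragments in the last 25% and 4.72 in the first on 13p, and 5.17 and 5.67 on 13q, and its part in these differences was not tested.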

How the data were processed

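The submitters' processing notes name Bowtie2 2.3.2 as aligner and MACS2 as peak caller. For the MACS2 version, genome build, duplicate handling, Tn5 shift and control, the sources used here give nothing. Deposited by the authors were 1 list per group, named in the labels of its samples, and 1 for all 7 samples. Per peak, the authors deposited a score (10 times the −log10 q without decimals, not used), the fold (a ratio of summit pileup to background), the −log10 p and −log10 q, the q-value being adjusted within 1 list, and a summit offset. These are the authors' own values.

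Chromosome 13 is 2 uncut sequences in the files. Positions are 1-based. Segmented arms elsewhere were joined by the starts in their names. Arm length was the end of the last all-sample peak. Pileups were solved from fold and −log10 p (Poisson tail, tolerance 0.001). Shares have exact binomial 95% intervals, medians order-statistic intervals, ratios and differences of medians the extremes of both intervals, and differences of shares Newcombe intervals. Named peaks followed a rule: per arm, 3 blastema peaks of highest fold in both and in neither limb list, 2 limb peaks of highest fold per list outside blastema, the 2 widest peaks and 2 longest gaps per list, extreme 20 Mb windows, and the densest 100 kb. Python 3.11.15, pandas 2.3.3, numpy 2.4.6 and scipy 1.17.1 were used, and the overlap, spacing and merging steps were tested on simulated peaks. Members, rule and settings were chosen with earlier results of these data known.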

Additional observations from a re-analysis of the deposited data

Results flagged for a closer look

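A signal in data outside the comparisons came from the all-sample list. It held 2635 peaks on 13p that no group list overlapped, 58.5% of its 4506 peaks there (interval 57.0 to 59.9), and 5703 on 13q, 57.3% of 9953 (56.3 to 58.3). These were the second lowest and the lowest shares of the 28 arms, against 60.8 to 71.5% on the others. The unmatched peaks were narrow, with a median of 265 bases on 13p and 269 on 13q, against 576 and 557 (556.5) bases for all-sample peaks that a group list overlapped. In the all-sample list the density of 13p, 18.7 peaks per Mb, had rank 8 of the arms and that of 13q, 20.6, had rank 4, so chromosome 13 did not lead there, and the densest arm was 3q with 23.2.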

How the results depend on the processing

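Over 27 results and 102 alternative values, 82 stayed within the interval of the reported value, 20 moved beyond it and 0 reversed a direction that its interval had fixed. The spacing ratios, width differences and sharing differences between the arms could not count as reversed, since their intervals include no difference. Some of these differences did change sign, as given below. The fullest window is chosen for its density, so its ratio to the arm could not reverse either. Some of the 82 could not move. The cut of each list to 17326 peaks left the systemically activated list whole, so values from that list alone stayed the same. No paired analysis was possible because each group has 1 list and no sample has a value of its own, and for the same reason leaving out a replicate gave no value. Merging peaks under 1000 bases apart, asking for 50% of each interval, placing the summit inside the other interval and taking arm length from the group lists moved nothing.

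With a −log10 q of at least 5, the share of blastema peaks in the first 50% of the arm was 35.5% on 13p and 28.2% on 13q. The 13p minus 13q differences were then -3.32 points for systemically activated peaks overlapped by blastema (interval -8.12 to -0.0278, against 0.349 over all peaks), 1.72 for systemically activated by intact (against -5.72), 1.88 for intact by blastema (against -2.03) and 7.85 for intact by systemically activated (against 1.24). With a fold of at least 5, 28.7% of blastema peaks lay on 13p, the blastema spacing ratio was 1.69, the differences for blastema peaks were 4.52 (systemically activated) and 4.02 (intact) points, and the first 50% of the arm held 32.8% on 13p and 26.2% on 13q. When every list was cut to the 17326 strongest peaks, 28.9% of blastema peaks lay on 13p, the spacing ratio was 1.33, the width difference 79 bases, and the differences were 4.49 points for blastema peaks overlapped by systemically activated ones and -4.49 for the converse. In windows of 10 Mb the fullest window stood at 2.02 (13p) and 2.66 (13q) times the arm's density in blastema and 3.59 times on 13p in systemically activated limb, against 1.81, 2.27 and 2.72 in windows of 20 Mb. The cause of these shifts was not tested. The 262 systemically activated and 358 intact peaks on 13p limit the precision of every comparison of the arms in those lists.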

Other observations

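A stretch of 13q from 400 to 440 Mb, chosen after its values were seen, was denser than the rest of the arm in all 3 lists, most so in blastema. It had 17.9 blastema, 1.33 systemically activated and 2.38 intact peaks per Mb, against 8.55, 1.13 and 1.67 on the rest of 13q, or 2.09, 1.17 and 1.42 times as many. No interval was worked out for these ratios, and the 1.17 of systemically activated limb rests on 53 peaks. Next to it, the windows from 440 to 460 and from 460 to 480 Mb had 17.35 and 21.2 blastema peaks per Mb. They had 2.15 and 2 systemically activated and 3.25 and 3.95 intact peaks per Mb, above the stretch in both limb lists. The stretch held 714 blastema, 53 systemically activated and 95 intact peaks, with a median blastema spacing of 20.5 kb, against 40.7 kb on the rest of 13q. Intact peaks overlapped 12.3% of its blastema peaks (10.0 to 15.0), against 18.1% on the rest of the arm, and systemically activated peaks 7.003% (5.24 to 9.13), against 12.3%. Over the whole blastema list these shares were 13.2% and 9.23%, so the intact share of the stretch was near that of the list. Neither limb list overlapped 617 blastema peaks of the stretch, or 86.4%, against 79.7% on the rest of 13q and 85.1% of the whole list. The median −log10 q was 5.13 in the stretch and 4.80 outside it. The median pileup was 24 and 23 fragments, and the median background 5.26 and 5.40 fragments. The part of strength and depth in the sharing, lower than on the rest of 13q, was not tested.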
